A study of Mus musculus with 2 samples.

Results

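Open chromatin was mapped around 10 mouse genes of the erythropoietin signal in CFU-E, the colony-forming erythroid progenitors that depend on erythropoietin. The genes were chosen by name: the receptor Epor, the kinase Jak2, the transcription factors Stat5a and Stat5b, the inhibitors Cish, Socs1, Socs2 and Socs3, and the response genes Pim1 and Erfe. They are 10 of the 21938 protein-coding genes annotated on the chromosomes analysed. ATAC-seq, in which the transposase Tn5 cuts into DNA that nucleosomes leave open, was run on primary erythroid progenitors of adult male C57BL/6J mice 5 to 6 weeks old. No genotype, treatment or second condition is given in the labels. There were 2 libraries of 50000 cells, numbered as biological replicates 1 and 2, from separate biosamples with a single donor identifier. The values below are therefore levels in 1 group, with no contrast and no test.

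Erythropoietin binds a dimer of its receptor, and the JAK2 kinases held by the receptor tails then phosphorylate both the tails and STAT5. Phosphorylated STAT5 enters the nucleus, binds DNA as a dimer and drives survival genes and its own inhibitors, the CIS and SOCS proteins, which block the receptor or JAK2. In erythroblasts the same signal induces Erfe, whose hormone product erythroferrone lowers hepcidin and frees iron for haemoglobin. Accessibility shows where DNA is open to such factors. It shows neither which factor is bound nor how much a gene is transcribed.

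The reads of both libraries pooled gave a list of peaks that passed the authors' test of irreproducible discovery rate (IDR), called the series list here. Overlapping or touching peaks were merged into 24394 regions, and a region was given to a gene when its midpoint lay in the gene body, or within 100 kb of an annotated start and nearest to that gene among protein-coding genes. The 10 genes received 41 regions, 0.168% of all regions, and these covered 23584 bp. Of the 41 regions, 19 were promoter regions, with a midpoint at most 1 kb from an annotated start of any gene, and 22 were distal. A gene's promoter was called accessible when a region overlapped the 1 kb to either side of one of its starts. Fold is the authors' enrichment of a peak over local background, and −log10 p is the authors' peak significance. A region carries the highest value among its peaks.

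The STAT5 word TTCNNNGAA, which reads the same on both strands, lay within 100 bp of the summit in 6 of the 41 regions, against 4.35% of all regions. These 6 regions belonged to Cish, Pim1, Jak2 and Erfe. They are shown with the word in capitals, on the gene's strand, from the RefSeq GRCm38.p6 assembly (mm10). GATA words, GATAA or GATAG preceded by A or T on either strand, are also in capitals at Pim1 −46.8 kb and Jak2. Where annotated exon covers the word, at most 30 bases are given.
Cish promoter, first pair, chr9:107296654-107296683, plus strand: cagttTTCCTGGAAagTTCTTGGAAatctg
Cish promoter, next pair, chr9:107296762-107296791, plus strand: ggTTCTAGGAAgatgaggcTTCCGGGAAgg
Cish, later start, chr9:107298231-107298260, plus strand: cacacacaggTTCTTGGAAcacaccagtcc
Pim1 −46.8 kb, chr17:29443808-29444004, plus strand: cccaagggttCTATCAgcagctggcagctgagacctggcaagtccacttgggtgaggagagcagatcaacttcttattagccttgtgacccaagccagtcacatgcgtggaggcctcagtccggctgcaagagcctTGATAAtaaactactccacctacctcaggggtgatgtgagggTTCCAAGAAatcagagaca
Pim1 downstream, chr17:29500888-29500968, plus strand: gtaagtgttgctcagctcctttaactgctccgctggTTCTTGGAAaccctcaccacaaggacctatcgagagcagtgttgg
Jak2 intron near the start, chr19:29252931-29253011, plus strand: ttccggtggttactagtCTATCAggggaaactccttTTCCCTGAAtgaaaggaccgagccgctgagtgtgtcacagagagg
Erfe promoter region, chr1:91367074-91367154, plus strand: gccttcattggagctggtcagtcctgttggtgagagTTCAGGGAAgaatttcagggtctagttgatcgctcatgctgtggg
Among the 41 regions, the Cish promoter region held the most words. It held 4, of which 2 lay within 100 bp of the summit. With 2 or more words over the full length there were 2 of the 41 regions, against 1.57% of all. A cut of 4, taken from the Cish count itself, was met by 4 of the 24394 regions (0.0164%). Width was not allowed for, and the Cish region spanned 778 bp, against a median of 591 bp. The other 3 regions with 4 or more words, named after their values were seen, lay at the starts of Bcl6 and 1110059E24Rik and 37.0 kb from the nearest start, that of Rab11fip2. Within 50 bp of a summit, 1 of the 41 regions had a STAT5 word, against 1.82% of all regions. A match describes the letters and does not show that STAT5 was bound.

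The labelled cell type was checked against marker genes. All 10 erythroid markers examined, among them the transcription factor genes Gata1, Klf1 and Tal1, had an accessible promoter in the series list. Of 18 markers of T, B, myeloid, megakaryocyte, mast and liver cells, 1 did: the platelet glycoprotein gene Gp9, with a fold of 3.3. The lists contain no read totals, so depth is unknown, and no interval for counting error can be given.

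Accessible promoters were found at 8 of the 10 genes in the series list, where 45.8% of all protein-coding genes had one. The genes without were Socs2 and Socs3. In the list of replicate 1 the same 8 genes had an accessible promoter, against a background of 43.5%. In the list of replicate 2 there were 7, without Stat5b, against 42.6%. The overlap list, the authors' longer list of replicated peaks, gave all 10, against 52.3%. By fold the signal at these promoters was not high, and 3 stayed accessible when only the upper 50% of regions by fold were kept. The share of all genes under that filter was not counted. By −log10 p, 76.4% of genes with an accessible promoter had a weaker one than Epor, and 53.5% a weaker one than Cish. For the other members with one this share was below 50%. The median of the strongest promoter fold was 6.77 over the 8 genes and 10.7 over all genes with an accessible promoter, and none of the 8 reached that median. This was not particular to the 8 genes. The erythroid markers all lay below 10.7 too, with promoter folds from 4.11 at Tal1 to 8.55 at Tfrc.

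**Figure D1:**
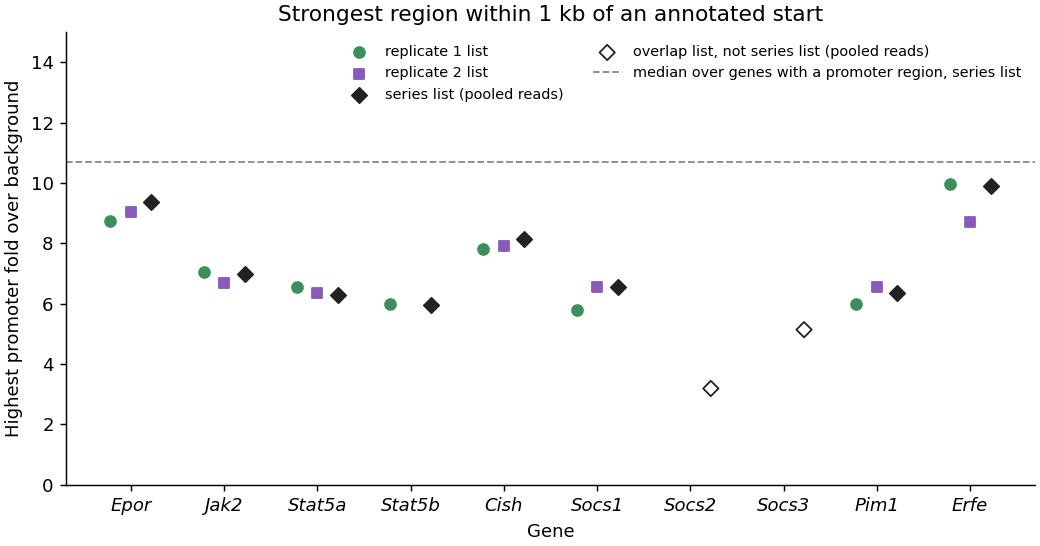
Highest fold over background among the regions that overlap 1 kb to either side of an annotated start (y axis), for each of the 10 genes (x axis), in the replicate 1 list (circles), the replicate 2 list (squares) and the series list (filled diamonds); open diamonds are overlap-list values of genes without a promoter region in the series list, and the dashed line is the median of 10.7 over all genes with a promoter region in the series list. All points lie below that line, Erfe is highest at 9.91 in the series list, Epor is highest in the replicate 2 list at 9.04, and Socs2 and Socs3 have open symbols only.

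Epor encodes the erythropoietin receptor and lies on the minus strand at chr9:21958897-21963506. It had 2 regions and both were at its starts. The stronger one, chr9:21962302-21963246, covered the later start and the first part of the gene with a fold of 9.36 and −log10 p of 174, the highest −log10 p of any member promoter. Its fold was 8.74 in replicate 1 and 9.04 in replicate 2. The other, chr9:21963318-21963990, covered the upstream start with a fold of 8.13, and with 8.19 in replicate 1 and 7.58 in replicate 2. By fold 34.7% of genes with an accessible promoter had a weaker one than Epor, and by −log10 p 76.4%, so its place depended on the measure. No distal region was assigned to Epor, and merging regions within 100 bp of each other joined both into 1. The stretch in which an Epor start was the nearest protein-coding start measured only 9.73 kb, against 112 kb for Jak2. The rule thus left little room for a distal region, and its absence does not show that Epor has no distal element.

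The summit of the upstream region lay next to a GATA word, 121 bp before the annotated start, followed by a run that holds a pair of overlapping KLF words (CCNCNCCC). GATA1 and the KLF and SP factors are the textbook regulators of this promoter. The stretch is shown on the minus strand, the strand of the gene, with both kinds of word in capitals.
Epor promoter, chr9:21963585-21963684, minus strand: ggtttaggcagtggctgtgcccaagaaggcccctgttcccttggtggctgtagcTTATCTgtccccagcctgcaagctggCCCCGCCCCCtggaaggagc

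Jak2 encodes the kinase that the receptor needs for its signal. It had 7 regions, a number reached by 2.19% of protein-coding genes. The number depended on the list: 4 in that of replicate 1, 3 in that of replicate 2 and 13 in the overlap list. The strongest region of all 41 lay 48.5 kb upstream of Jak2, at chr19:29202932-29203716, with a fold of 15.8. It ranked 676 among all 24394 regions, above 99.1% of the distal ones or level with them. Its fold was 17.0 in replicate 1 and 12.3 in replicate 2, so the libraries differed more here than at the Epor promoter. The assignment to Jak2 is by distance alone, and the nearest start of any annotated gene there was that of the pseudogene Gm5518. A second upstream region, 14.6 kb from the start, had a fold of 4.81 and appeared in neither replicate's own IDR list.

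At the Jak2 start itself, chr19:29250899-29251909 had a fold of 7.0, with 7.04 in replicate 1 and 6.7 in replicate 2. Behind it, in the first part of the gene, stood 3 weak regions with folds of 3.37, 2.56 and 2.85. The one with 2.56, chr19:29252875-29253068, holds the STAT5 word shown above, 5 bp from its summit. It was listed in neither library alone and dropped out of the conservative list, the only one of the 6 with a STAT5 word to do so. The last region of this row, chr19:29253802-29254307, had a fold of 5.55, with 5.16 and 5.68 in replicates 1 and 2.

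The Jak2 regions 48.5 kb upstream and 1.61 kb downstream of a start each held a match to the CTCF motif, searched by its core consensus. CTCF binds insulators and the anchors of chromatin loops. These were 2 of the 41 regions, or 4.88%, against 6.96% of all regions. The −48.5 kb summit also had a GATA pair, a CTG followed after 7, 8 or 9 bases by a GATA word, which is the layout bound by GATA1 with TAL1. GATA pairs were in 2 of the 41 regions, this one and 1 at Pim1, a share of 4.88% against 9.44% of all regions. Capitals mark the CTCF match and, in the first line, the GATA words, which overlap each other.
Jak2 −48.5 kb, chr19:29203535-29203627, plus strand: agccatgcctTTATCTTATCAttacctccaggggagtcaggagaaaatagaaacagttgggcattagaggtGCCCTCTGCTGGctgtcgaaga
Jak2 intron, chr19:29253945-29254016, plus strand: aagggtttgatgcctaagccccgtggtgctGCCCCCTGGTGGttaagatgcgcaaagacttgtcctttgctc

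Stat5a and Stat5b encode the closely related transcription factors that carry the signal to the nucleus, and they lie next to each other on chromosome 11 in opposite directions. Stat5a had 2 regions. The promoter region chr11:100860237-100860984 had a fold of 6.3, with 6.55 in replicate 1 and 6.34 in replicate 2. The other, chr11:100879257-100879987, sat at a start inside the gene with a fold of 4.46. It was uneven between libraries, with 4.9 in replicate 1 and 3.59 in replicate 2, and was missing from the conservative list and from the list of replicate 2.

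Stat5b had 3 regions, of which 2 were distal and lay within the gene; the list of replicate 2 had 1. Its promoter region, chr11:100849854-100850989, had a fold of 5.97, with 6.0 in replicate 1 and 5.26 in replicate 2. Of all genes with an accessible promoter, 7.53% had a weaker one by fold, the lowest place among the 8 members. The intronic regions had folds of 5.55 and 4.84, and of these the first was in the lists of both libraries. No STAT5 word lay within 100 bp of a summit in any of the 5 Stat5a and Stat5b regions, though the Stat5a promoter region had 2 farther from its summit.

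Cish encodes CIS, the SH2 protein that STAT5 induces and that in turn blocks STAT5 docking on the receptor. It had 7 regions, 2 at starts and 5 distal, and 2.43% of protein-coding genes had as many distal ones. The promoter region chr9:107296220-107296997, which holds the 4 STAT5 words, had a fold of 8.15 and −log10 p of 135. Its fold was 7.81 in replicate 1 and 7.9 in replicate 2. The first pair of words lay 47 and 36 bp before the nearest annotated start and the next pair 58 and 75 bp after it. The second start region, chr9:107298186-107298439, had a fold of 3.68 and 1 further word.

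The distal Cish regions formed a row behind the gene, between 5.44 and 13.9 kb from its nearest start. The last of them, chr9:107312745-107313455, was the strongest, with a fold of 10.1 that exceeded the promoter's. Replicate 1 gave it 9.64 and replicate 2 gave it 9.54. Next came chr9:107307251-107307941 with 7.93, then the region at 5.44 kb with 6.02, and a pair of weaker neighbours with 3.54 and 3.77. All 5 were nearer to a start of the antisense gene Gm17041 than to one of Cish, so only protein-coding starts place them here. When all annotated genes competed, Cish kept 2 regions. The summit of the strongest distal region is shown with an AP-1 or NF-E2 word (TGANTCA) and a KLF word in capitals; NF-E2 is an activator of globin genes. Its STAT5 word lay 127 bp from the summit.
Cish 13.9 kb, chr9:107312843-107312943, plus strand: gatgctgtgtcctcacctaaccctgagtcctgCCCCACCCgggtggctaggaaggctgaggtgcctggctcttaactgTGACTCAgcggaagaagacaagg

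The SOCS genes encode relatives of CIS, of which SOCS1 and SOCS3 inhibit JAK kinases directly. Socs1 had 4 regions. A group of 3 lay around its start, with folds of 4.43, 5.83 and 6.54. The strongest of these, chr16:10786394-10786843, reached into the promoter window, but its midpoint lay 1.08 kb upstream, so it was counted as distal. It had a fold of 5.8 in replicate 1 and 6.57 in replicate 2. The fourth, chr16:10731733-10732940, lay 53.2 kb from Socs1 inside an intron of Clec16a, had a fold of 6.94, and gave 7.12 in replicate 1 and 6.75 in replicate 2. Since it also lies in the body of Clec16a, it belongs to both genes under the rule.

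Socs3, the classical feedback inhibitor of gp130 receptors, had a single region in the series list. This region, chr11:117963433-117963854, lay 5.54 kb downstream of its nearest start and had a fold of 6.28. The libraries differed, with 7.63 in replicate 1 and 5.0 in replicate 2, and the region was missing from the list of replicate 2. Its promoter appeared only in less strict or differently built lists. The overlap list had chr11:117969788-117970337 with a fold of 5.14, which was also in the conservative list, and chr11:117969103-117969427 with 3.23. The weaker of these has a STAT5 word 25 bp from its summit, 57 bp before a start, shown here on the strand of Socs3.
Socs3 promoter, chr11:117969229-117969258, minus strand: cggccgggcagTTCCAGGAAtcggggggcg

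Socs2, which restrains growth hormone signalling, was the gene with least signal. It had no region in the series list, the conservative list or either replicate's IDR list. The overlap list gave 1 region at a start, chr10:95416974-95417216, with a fold of 3.19 and −log10 p of 5.71. That the signal missed the IDR threshold at an unknown depth does not show that the promoter was closed.

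**Figure D2:**
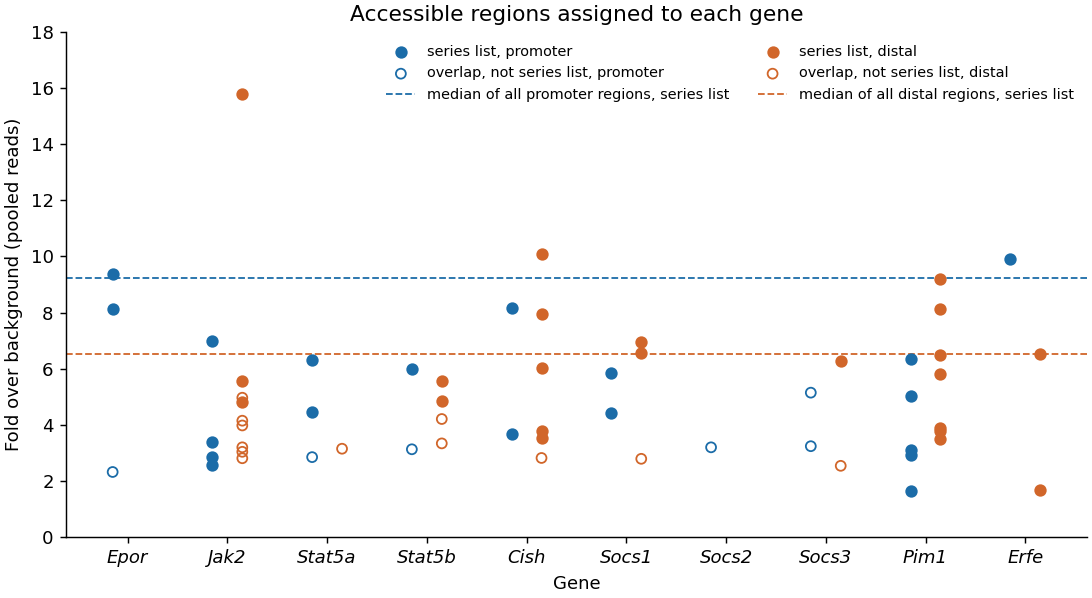
Fold over background in the pooled reads (y axis) for every region assigned to each gene (x axis); filled points are in the series list, open points are in the overlap list but not the series list, blue for promoter and orange for distal regions, and the dashed lines are the medians of all promoter regions (9.23) and all distal regions (6.52) of the series list. The Jak2 region at 15.8 stands above every other point, and Socs2 has a single open point at 3.19.

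Pim1 encodes a serine kinase that promotes survival and is a classical STAT5 target. It had 12 regions, the most of the 10 genes and a number reached by 0.301% of protein-coding genes. Of these, 5 lay together 43.3 to 53.5 kb upstream. The strongest pair was chr17:29447135-29447769 with a fold of 9.18 and chr17:29438272-29438945 with 8.11. Replicate 1 gave the first 8.61 and replicate 2 gave it 9.43, and the values for the second were 7.58 and 8.23. All 5 were in the IDR list of each library. This stretch lies in the body of the long non-coding RNA gene AC163629.2, and under competition by all annotated genes Pim1 kept 7 regions.

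The upstream group held the words of several blood factors. The region at −46.8 kb, chr17:29443758-29444115, had a fold of 5.8 and contains the STAT5 word, 2 GATA words and 2 GATA pairs within 100 bp of its summit. The strongest region had a TGANTCA word and a GATA word at its summit, shown in capitals.
Pim1 −43.3 kb, chr17:29447468-29447568, plus strand: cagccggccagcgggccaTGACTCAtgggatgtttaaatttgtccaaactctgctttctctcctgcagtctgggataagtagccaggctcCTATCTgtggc

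At the Pim1 start, chr17:29489936-29490902 had a fold of 6.35, with 5.98 in replicate 1 and 6.54 in replicate 2. A further 3 regions at starts inside the gene were weak, with folds of 1.62, 2.91 and 3.11. The one with 1.62 had a −log10 p of 4.0, had the same score as its neighbour with 2.91, and was missing from the overlap list. Behind the gene lay 3 regions between 7.6 and 10.1 kb. The farthest of these was the strongest, with a fold of 6.49, and the nearest, with 3.77, holds the other Pim1 STAT5 word.

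Erfe encodes erythroferrone, the erythroblast hormone of iron supply. It had 3 regions, all over its gene body or start. The promoter region, chr1:91366133-91367212, had a fold of 9.91, the highest member promoter by fold, and −log10 p of 107, which placed it 5 among the 8. Its fold was 9.96 in replicate 1 and 8.72 in replicate 2, where Epor was higher at 9.04. It holds the STAT5 word shown above, 684 bp behind the nearest start and 86 bp from the summit. At the far end of the gene, chr1:91373324-91373940 had a fold of 6.51, with 6.66 in replicate 1 and 5.69 in replicate 2. Next to it, chr1:91373985-91374239 was listed at 1.68 with −log10 p of 2.11. It was found in neither library, the conservative list nor the overlap list, and overlaps an exon of the neighbour Ilkap.

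**Figure D3:**
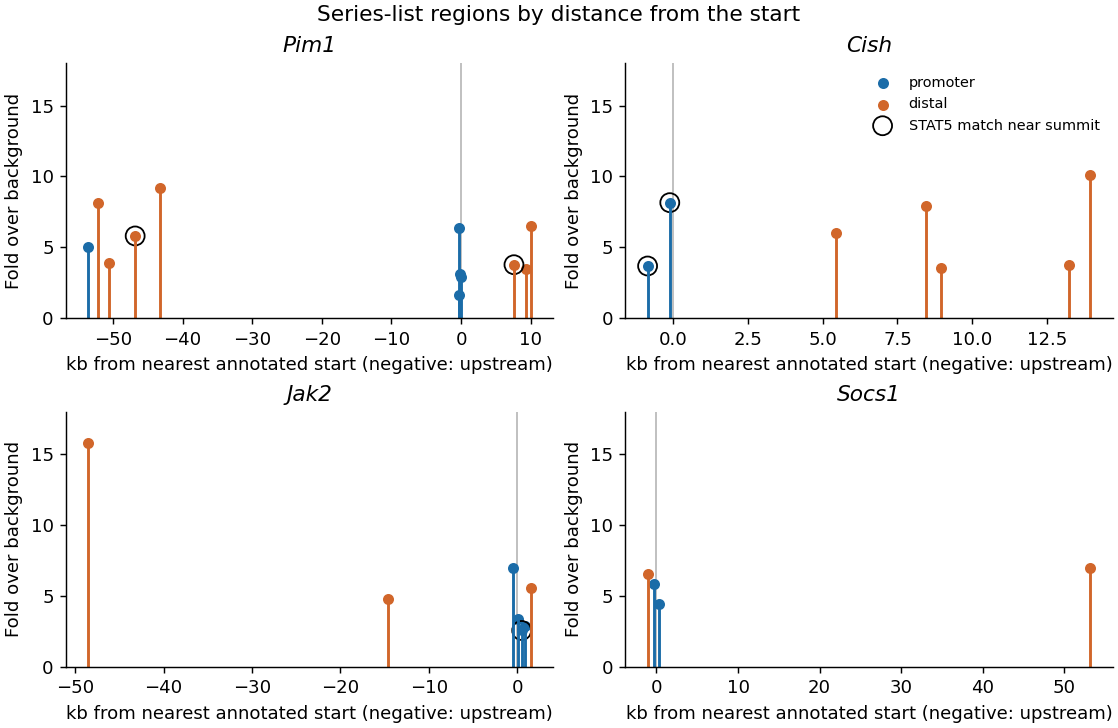
Fold over background in the pooled reads (y axis) against distance in kb from the nearest of the gene's annotated starts (x axis, negative is upstream) for the series-list regions of Pim1, Cish, Jak2 and Socs1; blue lines are promoter regions, orange lines distal regions, and circled points have a STAT5 word within 100 bp of the summit. Pim1 has a group 43.3 to 53.5 kb upstream, Cish a row behind the gene, and the highest Jak2 region stands 48.5 kb upstream.

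The 10 genes had from 0 regions (Socs2) to 12 (Pim1). The strongest promoter fold ran from 5.97 (Stat5b) to 9.91 (Erfe) over the 8 genes with an accessible promoter in the series list. Socs2 and Socs3 had 3.19 and 5.14 in the overlap list. Pim1, Cish and Jak2 together held 26 of the 41 regions, and Pim1 and Cish 12 of the 22 distal ones. The median was 3.0 regions per gene, against 1.0 over all protein-coding genes. The stretch nearest to each gene's starts differed in length, from 9.73 kb for Epor to 112 kb for Jak2, and these counts make no allowance for it. Per 100 kb of that stretch the median was 6.49 regions for the 10 genes and 0.699 over all protein-coding genes. The order of genes changed, with 32.8 at Cish, 20.5 at Epor, 16.4 at Pim1 and 6.23 at Jak2. At least 1 distal region was assigned to 7 of the 10, while 27.6% of all protein-coding genes had one. With all annotated genes competing, the 22 distal regions came down to 11. The list of replicate 2 alone gave 27 regions in all. By fold the regions were weaker than most. The median was 5.01 for the promoter regions of the 10 genes and 9.23 for all promoter regions. For distal regions the medians were nearer, 5.91 and 6.52. Place among all distal regions depended on the measure, and most distal regions of the 10 genes stood higher by −log10 p than by fold. The Pim1 region 52.1 kb upstream stood above or level with 70.4% of them by fold and 97.8% by −log10 p. The Jak2 region 14.6 kb upstream went the other way, with 21.1% and 7.02%. Of the 41 regions, 9 lay above the median fold of all regions. By gene, the order of strongest regions was Jak2, Cish, Erfe, Epor, Pim1, Socs1, Stat5a, Socs3 and Stat5b. Cish, Erfe, Epor and Pim1 lay between 9.18 and 10.1, closer together than the libraries were at the Erfe promoter. From Socs1 on, the values lay between 5.97 and 6.94, within the range over which single regions differed between the libraries.

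Among the 41 regions, 25 were in the IDR lists of both libraries, against 65.3% of all regions. A further 7 were in the list of replicate 1 only, against 9.6% of all regions. In the list of replicate 2 only there was 1, against 5.38%, and 8 were in neither, against 19.8%. The weaker overlap lists of both libraries held 37 of the 41, and 91.5% of all regions. In 33 regions, the summits of both libraries lay within 25 bp of the pooled summit, as in 86.3% of all regions. Replicate 1 had the higher −log10 p in 27 of the 37 regions with a value in each library. Across all regions it was higher in 70.6%, so the members followed the whole list. In 4 of the 37 the libraries were more than 1.5 times apart in −log10 p, and 9.18% of all regions were that far apart.

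**Figure D4:**
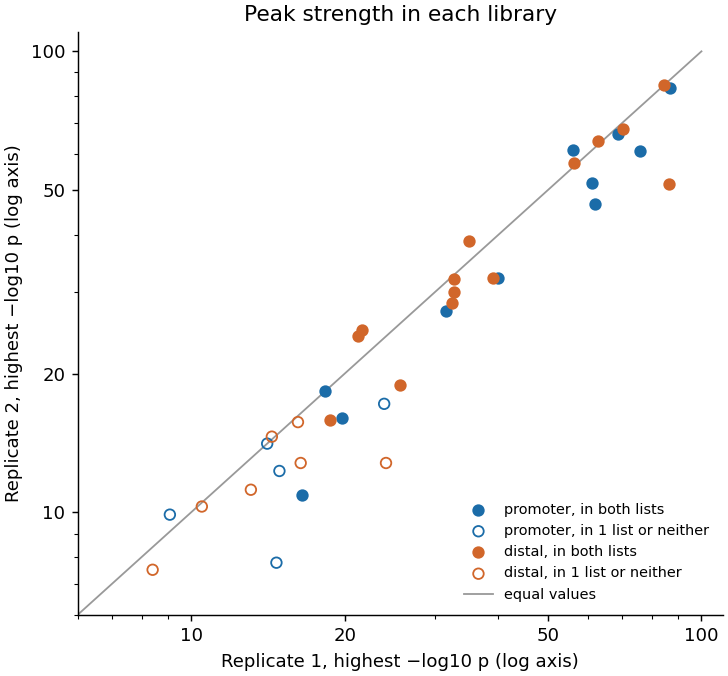
Highest −log10 p in replicate 2 (y axis, log scale) against replicate 1 (x axis, log scale) for the 37 member regions with a value in both libraries; filled points are in the IDR lists of both libraries, open points in 1 or neither, blue for promoter and orange for distal regions, and the line marks equal values. The Jak2 region at 48.5 kb upstream lies below the line at 86.2 in replicate 1 and 51.5 in replicate 2.

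Other words around the summits were counted in the same way, on both strands. GATA words were found in 15 of the 41 regions, against 33.0% of all regions, and in 10 of the 22 distal ones, against 49.8% of all distal regions. KLF words were found in 24 of the 41, against 44.4% of all. For promoter regions the KLF shares were alike, 57.9% in the 10 genes and 57.8% in all, and for distal regions they were 59.1% and 30.7%. The ETS word CCGGAAG was in none of the 19 promoter regions, while 14.9% of all promoter regions held it. The NF-Y word CCAAT was in 4 of these 19, against 31.9% of all. STAT5 words were in 4 of the 19 promoter regions, against 3.78%, and in 2 of the 22 distal ones, against 4.93%. The 4 promoter regions came from 3 genes, Jak2, Cish and Erfe, and the 2 distal ones from Pim1 alone. Regions of 1 gene share a locus and are not replicates, so these shares rest on few genes. A STAT5 word anywhere in the region was found in 10 of the 41, against 14.7% of all regions.

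**Figure D5:**
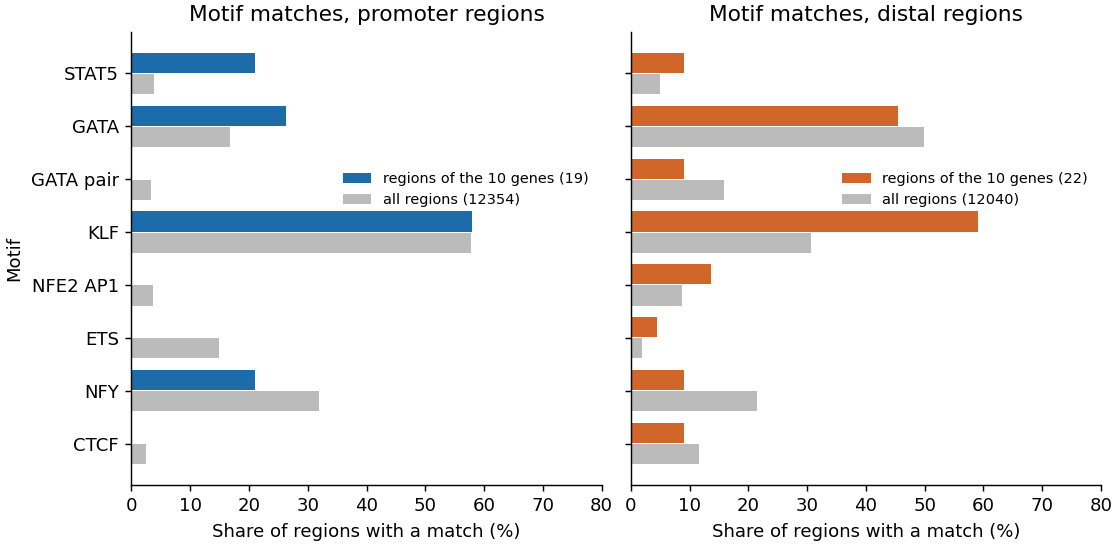
Share of regions with at least 1 motif match within 100 bp of the summit (x axis, percent) for 8 motifs (y axis), in promoter regions (left) and distal regions (right); coloured bars are the regions of the 10 genes (19 promoter, 22 distal), grey bars are all regions of the series list. The STAT5 share in promoter regions is 21.1% in the 10 genes (4 of 19 regions, from 3 genes) and 3.78% in all. The KLF share in distal regions is 59.1% in the 10 genes and 30.7% in all.

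Promoter windows by themselves, from 250 bases before to 50 after the RefSeq start, gave a narrower view. The RefSeq table held 9 of the 10 genes, in 12 windows, and Socs2 was not among them. The STAT5 word was in the windows of Cish and Socs3, and in 8.3% of all 32851 windows. GATA words were in the Epor window alone, against 29.8% of all windows. KLF words were in 10 of the 12 windows, covering all 9 genes, against 49.5%.

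The rest of the pathway was read from lists of 94 genes, of which 66 had an accessible promoter in the series list. Over all protein-coding genes the share was 45.8%, and each list below is to be read beside that share. Of 8 other Janus kinase and STAT genes, 7 had one, with the highest folds at Jak1 (13.5), Stat2 (13.3) and Tyk2 (12.3), each above every member promoter. Stat4, which acts in lymphocytes downstream of interleukin-12, had none, and Jak1 had 8 distal regions. The 4 other SOCS genes all had an accessible promoter, with folds of 15.1 at Socs5, 11.5 at Socs6, 9.31 at Socs7 and 8.77 at Socs4. Socs2 and Socs3 were thus the SOCS genes without one in the series list. In the overlap list both had one, and Socs3 also in the conservative list. The region at the Socs4 start was not assigned to Socs4 under the distance rule. Socs6 had 5 distal regions.

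Of 18 other inhibitors, such as phosphatases and PIAS proteins, 15 had an accessible promoter. The highest folds were at Ptpn1 (15.4), which encodes the phosphatase PTP1B, the deubiquitinase gene Usp8 (14.8) and Pias1 (14.5). Ptpn6, the gene of the phosphatase SHP-1, had none in the series list, nor had Ptprc and Spry2. Ptpn6 and Ptprc had one in the overlap list, and Ptpn6 also in that of replicate 1. Of 27 adaptors and kinases of the RAS and PI3K arms, 22 had an accessible promoter, among them Pik3ca (fold 14.2) and Map2k1 (13.9). Btk, Gab1, Lyn, Plcg2 and Vav1 had none in the series list. The overlap list had one at Gab1 (3.74), Btk (3.48) and Lyn (3.32). Inpp5d, the gene of the phosphatase SHIP1, had 12 distal regions and Foxo3, a factor restrained by AKT, had 7.

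Among 20 other reported targets of erythropoietin or STAT5, 16 had an accessible promoter, with the highest folds at Ireb2 (13.0), Mcl1 (10.8) and Pim2 (10.5). Ccnd2, Id1, Lcn2 and Podxl had none in the series list, and Id1 had one in the overlap list with a fold of 4.7. The median number of distal regions in this list was 2.5, against 0.0 over all genes. Those with 5 or more were Ccnd3 with 9, Lmo2 with 8, Bcl2l1 and Cdk6 with 6 each, and Bcl6 and Podxl with 5 each. Bcl2l1, the gene of the survival protein BCL-XL, had a promoter fold of 10.4.

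Of 12 other cytokine and growth factor receptor genes, 1 had an accessible promoter in the series list, against 45.8% of all protein-coding genes: Il6st, the gene of the shared subunit gp130, with a fold of 13.5. The first 6 without one in alphabetical order were Csf2rb, Csf2rb2, Csf3r, Ghr, Il2rg and Il3ra, and of these Il3ra had one in the overlap list with a fold of 5.17. Kit, the receptor of stem cell factor, was also without one and had no assigned region in the series list; it was singled out after its values were seen. Of 5 ligand genes, only Epo had an accessible promoter in the series list, with a fold of 7.6 and 3 regions, all promoter regions. Csf2, Il3, Kitl and Thpo had none.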

How the data were processed

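ATAC-seq peak lists of 2 CFU-E libraries (1 group) were analysed. By the listing the authors deposited, their peaks are on mm10, per library and for both libraries together, as IDR-thresholded, conservative and overlap lists. No aligner or peak caller is named in the labels or headers. For each peak the authors deposited a score up to 1000 (540 or more in the IDR-thresholded lists), a fold enrichment over background, a −log10 p and a summit offset. Peaks that overlap or touch were merged and assigned with GENCODE M21 in Python 3.11.15 with pandas 2.3.3 and numpy 2.4.6. The steps were tested on simulated loci.

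The members and all lists were chosen with earlier results of these data known. All 10 members are named; in each pathway list, the 3 highest promoter folds, genes without a promoter region (at most 6) and genes with 5 or more distal regions. A gene that this rule would name is not reported here. Shared means an overlap of 1 bp or more. Each library's values come from its own ranked list, not from the ranked list of both as planned, because the columns of that list name no library.

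The SD of the log2 ratio of −log10 p between libraries was 0.324 over 22341 regions. Between the pair of read sets compared in each library's own ranked list it was 0.531 (replicate 1) and 0.549 (replicate 2). Such a set is only part of a library's reads, so these values cannot be ranked against the SD between libraries. The libraries share a donor identifier, so their spread may be technical. Alternatives covered the lists, libraries, windows, distance, merging and competing genes.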

Additional observations from a re-analysis of the deposited data

How the results depend on the processing

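Most counts over the 10 genes stayed within 1.5 times under the alternatives. Keeping the upper 50% of regions by fold left 3 accessible promoters, 9 regions, 5 distal regions and 2 with a STAT5 word. Letting all annotated genes compete left 11 distal regions. A motif window of 50 bp left 1 region with a STAT5 word and whole regions gave 10. Using the list of 1 library alone gave 7 to 8 accessible promoters, 27 to 31 regions, 16 distal regions from either library and 4 regions with a STAT5 word from either. The other totals ranged from 8 to 10 promoters, 29 to 57 regions, 18 to 33 distal regions and 5 to 7 regions with a STAT5 word. Sharing judged at 50% of the shorter region left the 25, 32 and 26 shared regions as they were. Of 104 values for single genes, 78 stayed within 1.5 times and 26 moved. Read depth is unknown, so weak regions cannot be told from missing ones. All folds are the authors' values.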
